A study of Mus musculus with 4 samples.

Results

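Patz1 encodes a zinc finger protein with a POZ domain and AT-hooks that binds G-rich DNA, and here its own locus was examined in cells in which that gene had been knocked out. The members were pairs of 8 kb bins in Micro-C contact lists, chosen by position alone: chromosome 11, with one bin overlapping bases 3288001 to 3312000 (GRCm38), which hold Patz1, and the other bin between bases 2300000 and 4300000. There were 250 such pairs over the lists of both cell states, of 31819082 pairs in all, with 209 in the ESC list, 175 in the MN list and 134 in both. The first of the 3 Patz1 bins, 3288001 to 3296000, holds every annotated start of the gene but one and is called the promoter bin. The other 2 bins, 3296001 to 3304000 and 3304001 to 3312000, are called the first and the second gene-body bin.

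Micro-C cuts cross-linked chromatin with micrococcal nuclease and ligates the ends that lie close together, so that a read pair joining different places counts as one contact between them. Insulation proteins such as CTCF, together with cohesin, which extrudes loops of chromatin, limit which promoters and distal elements meet, and PATZ1 was studied as a further protein of this kind at Hox gene borders. Contacts fall steeply with distance along the chromosome, and contacts of a promoter with itself and with its neighbours make up most of what is counted at this resolution.

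Each of the 4 groups, WT and PATZ1 KO in each of ESCs and MNs, had 1 library. All came from the E14 line (E14TG2a) of mouse embryonic stem cells, held in LIF with 2i, and the MNs were cervical motor neurons obtained from such cells through embryoid bodies to which retinoic acid and a smoothened agonist were added from the second day. The PATZ1 KO cells were derived from the WT line by transfection of a vector carrying Cas9, a puromycin marker and an sgRNA against Patz1, and single clones were picked and genotyped. Contact counts cannot check the cell type by its markers. Which clone was used for Micro-C is not given in the sources used here, and a clone can differ from its parent at places other than the target. Without replicates a difference given here could not be set against the spread between replicates, and no test was made. Intervals are exact binomial (Clopper-Pearson) at the 95% level and cover counting error only. For the difference between promoter bin and gene body they are intervals of an odds ratio instead, and likewise cover counting error only.

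The edit was made inside the promoter bin. The guide matched GRCm38 once, at chr11:3290600-3290619 on the plus strand, and its site with the PAM in capitals and the same bases with the start codon in capitals are shown because they place the cut:
sgRNA with PAM: aaggggcagcgaccatggagCGG
sgRNA site with start codon: aaggggcagcgaccATGgagcgg
Cas9 cuts between the third and the fourth base before the PAM, so the last base before the cut was 3290616, the last base of the start codon shared by 4 coding transcripts of the gene, and 2616 bases into the bin. The coding sequence that begins there, chr11:3290614-3290673, is shown with its start codon in capitals, since the cut falls right after those capitals:
first 60 coding bases: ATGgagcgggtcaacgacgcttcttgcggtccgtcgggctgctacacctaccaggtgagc
The genotyping primers, which also lie in the promoter bin, span 1487 bases of the reference from 3290308 to 3291794:
primer_F: acctcttcgctcgtttaccc
primer_R: ctcttgaaccgcagaccaca
Bins of 8 kb cannot show a change of a few bases at the cut, and a loss of longer sequence between or beyond the primers was not tested here. Another coding transcript starts its coding sequence at 3294518, downstream of the cut and still in the promoter bin, and one more transcript starts at 3298284, in the first gene-body bin.

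The promoter bin differed from the gene body in sequence. Its GC content was 57.0%, above that of 96.9% of the bins of chromosome 11, against 48.3% in each gene-body bin. It held 307 CG dinucleotides, with a median of 70 over 14843 bins of the chromosome, and 102 were found in each gene-body bin. The word GGGAGGG, a G-rich word of the kind bound by PATZ1 and MAZ, was searched on both strands. It occurred 10 times in the promoter bin, 0 times in the first gene-body bin and 5 times in the second, against a median of 3 per bin. RefSeq places 2 promoters of Patz1 in this bin (GRCm38, 250 bases before to 50 after the start). The one with its start at 3290457 held 33 CG dinucleotides and 1 match to the word, and 21.95% of 32851 RefSeq promoters held at least 1. The one with its start at 3289131 held 14 CG dinucleotides and 0 matches, which says only that these letters are not in this window. Its 250 bases before the start, chr11:3288881-3289130 on the plus strand, are printed as the sequence at the edge of the bin whose contacts are described next, with no capitals as there is no match:
promoter 1, 250 bases before the start: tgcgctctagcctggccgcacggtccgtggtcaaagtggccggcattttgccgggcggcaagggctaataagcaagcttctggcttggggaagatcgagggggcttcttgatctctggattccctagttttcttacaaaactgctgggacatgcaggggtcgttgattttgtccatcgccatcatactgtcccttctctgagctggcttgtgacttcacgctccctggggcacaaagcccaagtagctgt

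Before the contacts are read, 3 facts of the lists bear on them. Their columns bear the numbers 1 and 2 without the name of a sample, and all directions below assume that 1 is WT and 2 is PATZ1 KO, as the name of the comparison orders them. Listed contacts summed to between 110991835 and 170946673 per library, and only pairs with a contact in both libraries of a cell state were listed. The sequence of chromosome 11 begins at base 3100001, so of the 249 whole bins of the window 150 were listed and only 24 of them lay before Patz1, while 123 lay after it. Among those 24, the 9 bins from 3128001 to 3200000, which hold Sfi1, had 5547 to 17963 contacts within 1 Mb in WT ESCs and 4427 to 12400 in WT MNs. The median bin of the chromosome had 805 and 559.

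Relative to the listed totals, contacts of the promoter bin were fewer in PATZ1 KO in both cell states, and those of the gene body were not fewer in ESCs. In ESCs the promoter bin had 553 contacts with the window in WT against 389 in PATZ1 KO, or 3.23 and 2.42 per 1000000 listed contacts. That is a log2 ratio, PATZ1 KO over WT and scaled to the listed total of each library, of -0.42 (interval -0.61 to -0.23), a level 25.1% lower. In MNs it had 378 contacts in WT against 226 in PATZ1 KO, or 3.41 and 1.91 on the same scale, and the log2 ratio was -0.83 (interval -1.07 to -0.59), a level 43.8% lower. The interval lay below 0 in each cell state. After subtracting a lowess fit on GC content over chromosome 11, the MN value was -0.28 and the ESC value -0.48. These ratios rest on the listed totals: scaled to the read totals that the study states, which did not follow the listed contacts, the promoter bin was at -1.29 in ESCs and 0.75 in MNs. On that scale the gene-body bins were at -0.69 and -0.80 in ESCs and at 1.10 and 1.07 in MNs. The direction of each bin taken alone thus depends on the scaling, except that of the promoter bin in ESCs, which was below 0 on both scales. The comparisons with neighbouring bins and with the gene body do not.

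The ratios of the gene-body bins over all their contacts were near or above 0 in ESCs and below 0 in MNs. The first gene-body bin had 717 contacts in WT against 764 in PATZ1 KO ESCs (log2 ratio 0.18, interval 0.03 to 0.33), and 571 in WT against 437 in PATZ1 KO MNs (log2 ratio -0.47, interval -0.66 to -0.29). The second had 766 and 759 in ESCs (log2 ratio 0.08, interval -0.07 to 0.22) and 584 and 436 in MNs (log2 ratio -0.51, interval -0.69 to -0.33). Without pairs within a bin and between next bins, the ESC ratios were -0.03 for the first and -0.22 for the second, below 0. Over all contacts, all 3 bins were thus lower in PATZ1 KO MNs, and in ESCs the promoter bin alone of the 3 was lower beyond counting error. Whether the ratios of ESCs and MNs differ beyond the spread between libraries was not tested.

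**Figure D1:**
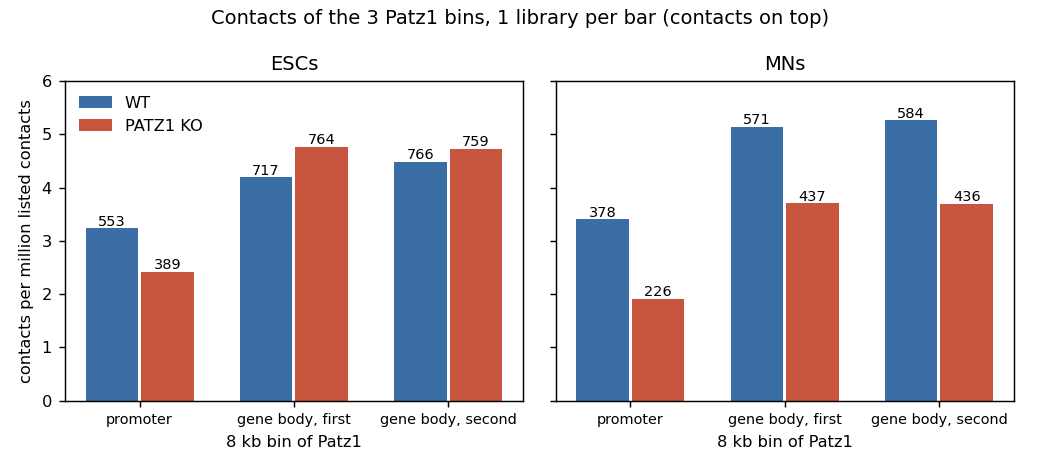
Contacts of each of the 3 Patz1 bins with the window, in contacts per 1000000 listed contacts, for WT (blue) and PATZ1 KO (red) in ESCs and MNs. Each bar is 1 library and the number on it is the count of contacts. The promoter bin falls from 553 to 389 in ESCs and from 378 to 226 in MNs, while the gene-body bins stay between 717 and 766 in ESCs.

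Set against all bins with at least 100 contacts within 1 Mb summed over both libraries, a level lower by 20% or more in PATZ1 KO was rare in ESCs and common in MNs. In ESCs 1 of the 3 Patz1 bins passed that limit, the promoter bin, where 0.712% of 309223 bins did. In MNs 3 of 3 passed it, where 13.8% of 308002 bins did. Among bins that hold the start of a protein-coding gene the shares were 1.04% in ESCs and 28.9% in MNs, so that in MNs passing the limit does not by itself set a promoter apart. These shares and calls in MNs depend on GC content and on the scaling. After a GC fit over all chromosomes 0.357% of bins and 0.432% of promoter bins passed in MNs, against 0.308% and 0.972% in ESCs. The promoter bin of Patz1 then passed in ESCs, at -0.49, and in MNs, at -0.32, fell just short of the limit. Scaled to the read totals of the study, 3 of the 3 Patz1 bins passed in ESCs and 0 in MNs, where 97.6% and 0% of all bins did, so these counts say nothing of Patz1.

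The promoter bin also stood below its own neighbours, which takes out a shift shared by the region. It does not take out a shift that follows GC content, with which the MN ratios moved. The promoter bin, at 57.0%, was above each flanking bin in GC content. Over the 40 bins that flank the gene, 20 on each side, log2 ratios ran from -0.12 to 0.23 in ESCs with a median of 0.04, and from -0.56 to 0.04 in MNs with a median of -0.25. The 40 bins include the 9 of the upstream block of high counts, which held the highest ESC value. None of the 40 was as low as the promoter bin in either cell state. Relative to the flanking median, the promoter bin was at -0.46 in ESCs and -0.58 in MNs. The first gene-body bin was at 0.14 in ESCs and -0.23 in MNs, and the second at 0.03 and -0.26. In MNs 2 of the 40 flanking bins were lower than the first gene-body bin, and 2 were lower than the second.

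**Figure D2:**
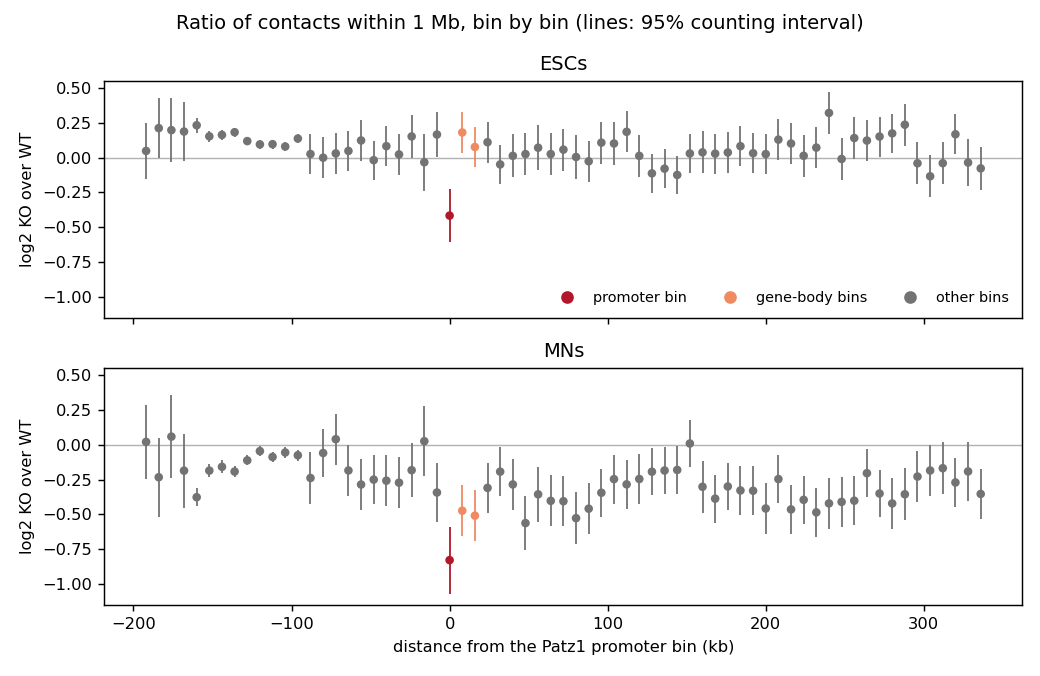
The ratio (log2, PATZ1 KO over WT) of contacts within 1 Mb for each 8 kb bin, against its distance from the Patz1 promoter bin in kb, in ESCs (top) and MNs (bottom). Vertical lines are 95% counting intervals, dark red marks the promoter bin and orange the gene-body bins. In both cell states the promoter bin is the lowest point shown, over a flanking median of 0.04 in ESCs and -0.25 in MNs.

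The difference between the promoter bin and the gene body does not depend on how the libraries are scaled, because the scaling cancels. A part that follows GC content does not cancel. After a lowess fit on GC content over chromosome 11, the MN ratios were -0.28 for the promoter bin and -0.088 and -0.13 for the gene-body bins. The log2 ratio of the promoter bin minus that of both gene-body bins together was -0.55 in ESCs (interval -0.76 to -0.33) and -0.34 in MNs (interval -0.62 to -0.06). Without pairs among the 3 bins it was -0.47 (interval -0.78 to -0.16) in ESCs and -0.19 (interval -0.57 to 0.18) in MNs, so that in MNs the difference beyond counting error rested on contacts within the gene. Within each library, the promoter bin held 27.2% (interval 25.2 to 29.1) of the summed contacts of the 3 bins in WT ESCs and 20.3% (18.6 to 22.2) in PATZ1 KO ESCs. In these shares, and in the difference over all contacts, a contact between different Patz1 bins was counted in both bins. Their intervals are thus approximate. The share in MNs was 24.7% (22.5 to 26.9) in WT and 20.6% (18.2 to 23.1) in PATZ1 KO. The WT shares were the higher ones in each cell state, and the WT and PATZ1 KO intervals overlapped in MNs but not in ESCs. Already in WT the promoter bin had fewer contacts than the gene body, at 0.746 times the mean of the gene-body bins in ESCs and 0.655 times in MNs. Of the 31 flanking bins outside the block of high counts, 1 had fewer contacts than the promoter bin in each library except PATZ1 KO MNs, where 0 did.

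Among the 3 Patz1 bins, contacts of the promoter bin were fewer in PATZ1 KO for most pairs. Contacts within the promoter bin went from 158 to 116 in ESCs (log2 ratio -0.35, interval -0.71 to 0.00) and from 117 to 65 in MNs (log2 ratio -0.94, interval -1.40 to -0.49). Contacts of the promoter bin with the first gene-body bin were 62 in WT against 64 in PATZ1 KO ESCs (log2 ratio 0.14, interval -0.39 to 0.66), and 46 and 25 in MNs (log2 ratio -0.97, interval -1.73 to -0.24). Contacts of the promoter bin with the second gene-body bin were 30 and 14 in ESCs (log2 ratio -1.01, interval -2.04 to -0.05), and 15 and 5 in MNs (log2 ratio -1.67, interval -3.49 to -0.14). In ESCs the nearer pair was thus within counting error of no difference while the farther one had fewer contacts, and in MNs both had fewer.

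Within the gene body the ESC counts went the other way. Contacts within the first gene-body bin were 224 in WT against 274 in PATZ1 KO ESCs (log2 ratio 0.38, interval 0.12 to 0.64) and within the second 264 and 302 (log2 ratio 0.28, interval 0.04 to 0.53). Contacts between the gene-body bins were 83 and 106 (log2 ratio 0.44, interval 0.02 to 0.88). All of these were higher in PATZ1 KO ESCs. In MNs the same pairs had 183 and 171, 176 and 142, and 71 and 43 contacts, each fewer in PATZ1 KO, and for the first of them the interval reached above 0 (log2 ratio -0.19, interval -0.50 to 0.12).

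By distance, the ratio of the promoter bin was lowest between 16 and 40 kb in ESCs. Its interval there was clear of that of the next bins alone and overlapped those of all other classes. In MNs the ratio was below 0 in each class up to 200 kb, with intervals that overlapped. Expected contacts were the mean of chromosome 11 at the same distance in the same library. That mean, the shares of chromosome 11 pairs and the GC fit over chromosome 11 include the stretch from 87560001 to 98448000. There, as given below, 57 promoter bins in ESCs and 54 in MNs were lower than that of Patz1. At 16 to 40 kb the promoter bin had 135 contacts in WT against 65 in PATZ1 KO ESCs (log2 ratio -0.96, interval -1.41 to -0.53), or 1.05 and 0.58 times the expected contacts, and each of the 8 partners there was lower after scaling, as were 57.8% of all listed pairs of chromosome 11 at this distance. In MNs it had 75 and 38 there (log2 ratio -1.07, interval -1.67 to -0.49), or 0.80 and 0.46 times the expected, with 7 of 7 listed partners lower, against 65.5% of pairs. So the excess that the promoter bin had over its other distances in WT ESCs, where only this class reached the chromosome mean, was not seen in PATZ1 KO ESCs. With an expected that also took the coverage of both bins into account, each ESC partner of this class was still lower in PATZ1 KO. The MN partners then went both ways, such as 1.33 and 1.96 times the expected at 32 kb upstream, and 2.16 and 0.861 times at 24 kb upstream.

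In the bins next to it the promoter bin had 114 contacts in WT against 105 in PATZ1 KO ESCs (log2 ratio -0.03, interval -0.42 to 0.37), and 84 and 54 in MNs (log2 ratio -0.73, interval -1.25 to -0.22). At 48 to 200 kb it had 115 and 76 in ESCs (log2 ratio -0.51, interval -0.94 to -0.08), and 85 and 51 in MNs (log2 ratio -0.83, interval -1.36 to -0.31). These were 0.67 and 0.51 times the expected in ESCs and 0.74 and 0.50 times in MNs. Beyond 200 kb it had 31 and 27 contacts in ESCs and 17 and 18 in MNs. A difference was not detectable at this depth there, and the requirement of a contact in both libraries draws ratios of such sparse pairs toward 0.

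Of the gene-body bins, the second had its lowest log2 ratio, scaled to the listed totals, at 16 to 40 kb in both cell states, as the promoter bin did, and the first did not. The first gene-body bin had 131 and 121 contacts at 16 to 40 kb in ESCs, 1.02 and 1.08 times the expected, and 115 and 77 in MNs, 1.23 and 0.94 times. The second had 123 and 81 there in ESCs (log2 ratio -0.51, interval -0.93 to -0.10) and 90 and 58 in MNs (log2 ratio -0.72, interval -1.22 to -0.23). The second gene-body bin thus had fewer contacts at this distance in PATZ1 KO ESCs although its sum over the window was about level, and the 30 to 14 contacts with the promoter bin are part of that class. At 48 to 200 kb the gene-body bins in ESCs had 153 and 142 contacts for the first and 172 and 150 for the second, within counting error of no difference.

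**Figure D3:**
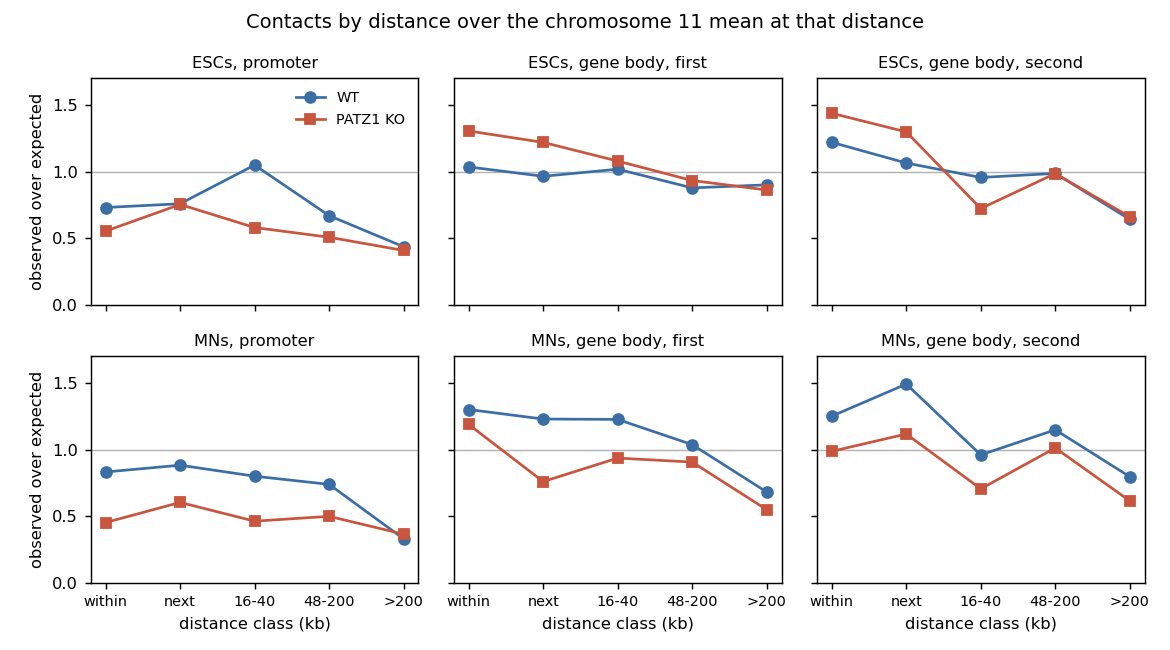
Observed contacts over the mean of chromosome 11 at the same distance, for the promoter bin and the gene-body bins in 5 distance classes in kb, in WT (blue) and PATZ1 KO (red) ESCs (top) and MNs (bottom). Each point is 1 library. The promoter bin in ESCs drops from 1.05 to 0.58 at 16 to 40 kb and stays at about 0.76 and 0.75 in the next bins, and in MNs it is lower in PATZ1 KO in the 4 classes up to 200 kb.

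Partner by partner, the promoter bin had 59 listed partners in ESCs, itself included, of which 33 were lower in PATZ1 KO after scaling, and 47 in MNs, of which 40 were. These are 55.9% and 85.1%. The share over all pairs of chromosome 11 was not set beside them, so they are a description only. Of the listed partners of the first gene-body bin 38.5% were lower in ESCs and 80.6% in MNs, and of those of the second 42.7% and 81.2%, so in MNs the share of the promoter bin was near that of the gene body. Pairs with the same count in both libraries fall on the higher side in ESCs and on the lower side in MNs, since the PATZ1 KO total was the smaller one in ESCs and the larger one in MNs. The farthest lay 888 kb away in ESCs and 720 kb away in MNs. Counts per pair were low: the median over all member pairs was 3 in both WT libraries and 2 in both PATZ1 KO libraries. Pairs with 10 or more contacts numbered 30 in WT and 24 in PATZ1 KO ESCs, and 21 in WT and 11 in PATZ1 KO MNs. All of these that belong to the promoter bin lay within 40 kb of it.

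Upstream, the nearest protein-coding gene start is that of Drg1, a GTP-binding protein tied to ribosomes, which lies in the bin 24 kb before the promoter bin. The promoter bin had 21 contacts with it in WT against 12 in PATZ1 KO ESCs (log2 ratio -0.72, interval -1.87 to 0.37), and 16 and 4 in MNs (log2 ratio -2.09, interval -4.13 to -0.46). The Drg1 bin itself had 651 contacts within 1 Mb in WT and 680 in PATZ1 KO ESCs (log2 ratio 0.15), and 444 and 416 in MNs (log2 ratio -0.18). Contacts between the promoters of Patz1 and Drg1 were thus fewer in PATZ1 KO beyond counting error in MNs, and within it in ESCs. In MNs the Drg1 bin also had fewer contacts with the gene-body bins, 13 and 8 with the first and 9 and 3 with the second. The MN interval of the Patz1 and Drg1 promoters held -0.83, the ratio of the promoter bin over all its contacts. Of the other bins from 16 to 40 kb upstream, the one at 16 kb had 19 and 5 contacts in ESCs (log2 ratio -1.83, interval -3.61 to -0.37) and 6 and 5 in MNs (log2 ratio -0.35, interval -2.40 to 1.62). The bin at 32 kb had 17 and 11 in ESCs (log2 ratio -0.54, interval -1.78 to 0.64) and 9 and 7 in MNs (log2 ratio -0.45, interval -2.11 to 1.14). The bin at 40 kb had 16 and 4 in ESCs (log2 ratio -1.91, interval -3.95 to -0.28) and is not listed with the promoter bin in MNs. The interval lay below 0 at 16 and 40 kb in ESCs and at the Drg1 bin in MNs. Both of these ESC intervals held -0.42, the ratio of the promoter bin over all its contacts in ESCs.

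The other genes before Patz1 are Eif4enif1, whose protein shuttles the cap-binding factor eIF4E into the nucleus, and Sfi1, a centrin-binding protein of the centrosome. Eif4enif1, 88 kb upstream, had 5 contacts with the promoter bin in WT and 6 in PATZ1 KO ESCs, and 2 and 2 in MNs. Sfi1, 96 kb upstream, had 4 and 2 in ESCs and in MNs alike. The annotation has no further protein-coding gene start on that side, where the sequence of the chromosome begins.

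On the other side, Pik3ip1, an inhibitor of PI3 kinase, starts in the bin 40 kb after the promoter bin and had 7 and 3 contacts with it in ESCs and 7 and 5 in MNs. Limk2, a kinase that acts on cofilin, lies at 120 kb and had 3 and 3 in MNs. It was not listed as a partner of the promoter bin in ESCs. Rnf185, a ubiquitin ligase of the endoplasmic reticulum, lies at 160 kb and had 2 and 1 in either cell state. Pla2g3, a secreted phospholipase, lies at 200 kb and had 2 and 2 in ESCs, and was not listed in MNs. Inpp5j, an inositol polyphosphate phosphatase, was not listed as a partner of the promoter bin in either. At such counts no difference at these 4 more distant promoters was detectable at this depth.

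**Figure D4:**
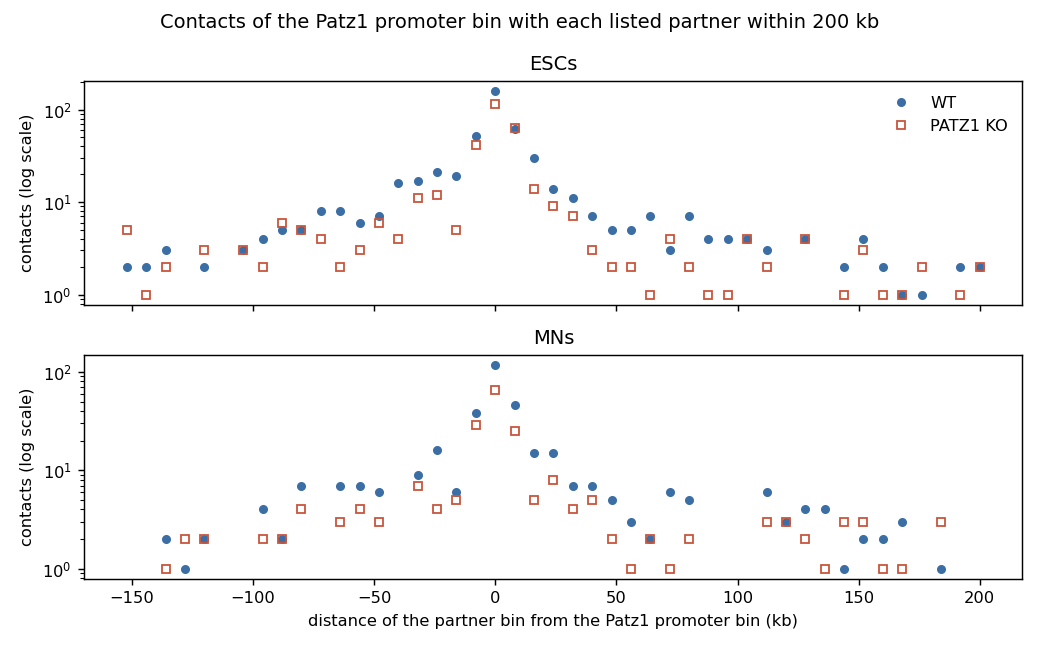
Contacts (log scale) of the Patz1 promoter bin with each listed partner within 200 kb, against the distance of the partner in kb, in WT (blue circles) and PATZ1 KO (red squares) ESCs (top) and MNs (bottom). Each point is 1 pair in 1 library. From 16 to 40 kb on either side the PATZ1 KO points lie below the WT points, for 8 of 8 partners in ESCs and 7 of 7 in MNs.

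Partners at 2 times the distance mean or more were few, and with an expected from distance alone none was a partner of the promoter bin. A pair with at least 10 contacts and an observed over expected of at least 2 was found 3 times in each library but that of PATZ1 KO MNs, where it was found 0 times, and all joined a gene-body bin to a bin upstream of the gene. Pairs between different bins that reached 10 contacts and so could pass numbered 27 in WT and 21 in PATZ1 KO ESCs, but 18 in WT and 8 in PATZ1 KO MNs. Of all pairs of chromosome 11 up to 1 Mb apart that reached 10 contacts, 15.2% and 14.9% passed in ESCs and 12.8% and 11% in MNs, so the Patz1 counts of 3 are near the background and the 0 rests on few pairs. The first gene-body bin met the bin from 3256001 to 3264000 with 23 contacts in WT against 10 in PATZ1 KO ESCs, 2.34 and 1.18 times the expected, and with 19 and 7 in MNs, 2.66 and 1.12 times. This pair was the only one past both limits in WT of both cell states. Since it passed them in WT alone, its lower PATZ1 KO values are a description that follows in part from how it was chosen.

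The other pairs past the limits were seen in 1 library each. In WT ESCs they were the first gene-body bin with the bin from 3216001 to 3224000 (13 contacts, and 5 in PATZ1 KO) and the second with the bin from 3176001 to 3184000 (10 and 5), which lies in the block of high counts. In PATZ1 KO ESCs they joined the first gene-body bin to the Drg1 start (22 contacts, and 13 in WT), to the bin from 3240001 to 3248000 (13 and 13) and to the Sfi1 start (11 and 9). In WT MNs the first gene-body bin met the bin from 3224001 to 3232000 (10 contacts, and 7 in PATZ1 KO), and the second the bin from 3232001 to 3240000 (10 and 4). At Drg1 in ESCs the second gene-body bin had 17 and 13 contacts and the promoter bin 21 and 12, so that of the 3 bins the first gene-body bin alone had the higher count in PATZ1 KO, a difference that was not tested. Since that pair passed the limits in PATZ1 KO alone, its higher count there follows in part from how it was chosen. Where the expected also took the coverage of both bins into account, the pairs of the Sfi1 block fell to between 0.15 and 0.21 times the expected in the library that had called them. With that expected the promoter bin had 2 partners past both limits, each in a WT library and in no PATZ1 KO library, so that their PATZ1 KO values are likewise a description. They were the bin from 3248001 to 3256000 in WT ESCs (16 contacts, 2.04 times the expected, against 4 and 0.707 times in PATZ1 KO) and the Drg1 bin in WT MNs (16 contacts, 2.16 times, against 4 and 0.861 times).

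Contacts that pass over the promoter bin were within counting error of no difference in ESCs, and those of the promoter bin with the same bins were fewer. The 5 bins before the promoter had 127 contacts with the gene-body bins in WT and 116 in PATZ1 KO ESCs (log2 ratio -0.04, interval -0.42 to 0.33), and 177 and 156 with the 5 bins after the gene (log2 ratio -0.09, interval -0.41 to 0.23). The promoter bin itself had 125 and 73 contacts with the same 5 bins before it (log2 ratio -0.68, interval -1.12 to -0.26) and 42 and 23 with the 5 bins after the gene (log2 ratio -0.78, interval -1.58 to -0.01). In MNs contacts over the promoter were 101 and 69 with the gene-body bins (log2 ratio -0.64, interval -1.10 to -0.18) and 104 and 90 with the bins after the gene (log2 ratio -0.30, interval -0.72 to 0.12). There the promoter bin had 69 and 45 with the 5 bins before it (log2 ratio -0.71, interval -1.28 to -0.14) and 37 and 20 with the 5 bins after the gene (log2 ratio -0.98, interval -1.84 to -0.15). In MNs contacts over the promoter with the gene-body bins were thus lower by about as much as those of the promoter bin with the bins before it, unlike in ESCs, a difference between cell states that was not tested.

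The balance of contacts between the sides of the gene did not differ detectably. Leaving out pairs among the 3 Patz1 bins, the promoter bin had 180 contacts upstream and 123 downstream in WT ESCs, and 115 and 80 in PATZ1 KO ESCs, so 59.4% (interval 53.6 to 65.0) and 59.0% (51.7 to 66.0) lay upstream. In MNs it had 107 and 93 in WT and 68 and 63 in PATZ1 KO, or 53.5% (46.3 to 60.6) and 51.9% (43.0 to 60.7). From distance alone 53.3%, 53.2%, 52.3% and 52.0% were expected upstream, in the same order, because the gene bins removed lie on the downstream side. For the first gene-body bin the upstream share was 42.2% and 40.3% in WT and PATZ1 KO ESCs and 42.8% and 43.4% in MNs. With equal reach of 192 kb on both sides and the gene bins kept, an alternative chosen after seeing the data, the promoter bin had 49.7% and 47.1% of contacts on the upstream side in WT and PATZ1 KO ESCs and 43.9% and 47.6% in MNs. The WT and PATZ1 KO intervals of each of these shares overlapped.

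Across all promoters, few bins stood as far below their neighbours as that of Patz1. Here the ratio of each bin holding a protein-coding gene start was taken relative to the median of the bins 3 to 22 bins away on either side. By that measure Patz1 was at -0.47 in ESCs, where 2 of 18758 bins were lower, and at -0.59 in MNs, where 0 of 18695 were. That measure was not adjusted for GC content, with which the MN ratios moved. A GC fit in place of neighbours left 87 of 18760 promoter bins lower than that of Patz1 in MNs. A level lower by 20% or more relative to neighbours was found in 0.208% of these bins in ESCs and in 0.904% in MNs. Of the 18695 measured in both cell states 1 passed it in both, and this was the Patz1 bin. That count rests on where the limit lies, a log2 ratio 0.322 below neighbours. Gm11492 fell just short of it in MNs (-0.411 in ESCs and -0.318 in MNs), and Gm3880 in ESCs (-0.304 and -0.466). The unadjusted ratio set it apart less, since 78 promoter bins in ESCs and 55 in MNs were lower. Of those, 57 in ESCs and 54 in MNs lay on chromosome 11 between 87560001 and 98448000, with median log2 ratios of -0.84 and -1.13, far from Patz1.

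**Figure D5:**
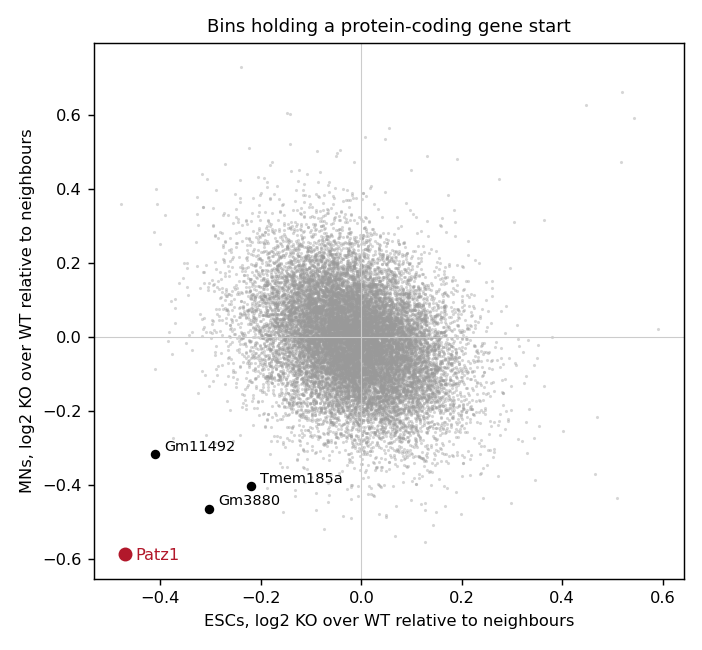
Each point is 1 of 18695 bins that hold a protein-coding gene start. The axes give the log2 ratio (PATZ1 KO over WT) minus the median of the bins around it, in ESCs (horizontal) and MNs (vertical). Patz1 (red) lies at -0.47 and -0.59, and the genes most like it (black) are labelled.

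The promoters whose ratios relative to neighbours were nearest to those of Patz1 were Gm3880, Gm11492 and Tmem185a, by Euclidean distance over both cell states. Gm11492, on chromosome 11 from 87566653 to 87569250, had 711 contacts in WT against 332 in PATZ1 KO ESCs and 514 and 265 in MNs. Its bin begins the stretch of chromosome 11 just described. Gm3880 on chromosome X had 131 and 171 in ESCs and 110 and 148 in MNs, more in PATZ1 KO but less so than around it. Tmem185a, a membrane protein gene on chromosome X, had 322 and 254 in ESCs and 176 and 151 in MNs. Relative to neighbours, in ESCs and MNs, Gm3880 stood at -0.304 and -0.466, Gm11492 at -0.411 and -0.318 and Tmem185a at -0.220 and -0.404. That none of the 3 lay as far out as Patz1 in both cell states follows from the MN ranking above.

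GC content moved with the ratios in MNs. A lowess fit of the bin ratio on GC content over all chromosomes stood at -0.51 at the GC content of the promoter bin in MNs and at 0.08 in ESCs. After subtracting it, the promoter bin was at -0.32 in MNs, where 87 of 18760 promoter bins were lower, and at -0.49 in ESCs, where 61 of 18822 were lower. The part of GC content in the MN result was not tested.

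Genes for proteins of related kinds were counted for comparison. Of 14 genes for insulation and cohesin proteins, 0 in ESCs and 3 in MNs had a promoter bin lower by 20% or more, against the 1.04% and 28.9% of all promoter bins. Their median log2 ratios were -0.12 and -0.13, where those of all promoter bins were -0.02 and -0.20. The 3 were Ctcf (868 and 731 contacts in MNs, log2 ratio -0.34), Maz (510 and 418, log2 ratio -0.38) and Mau2, a loader of cohesin (938 and 789, log2 ratio -0.34). In ESCs Ctcf had 1145 and 985 contacts (log2 ratio -0.13) and Maz 632 and 549 (log2 ratio -0.11). Rad21, the cohesin subunit, had 968 and 776 in ESCs (log2 ratio -0.23) and 429 and 508 in MNs (log2 ratio 0.16). Zfp263, the mouse gene of ZNF263, had 512 and 461 in ESCs (log2 ratio -0.06) and 356 and 311 in MNs (log2 ratio -0.28). Smc1a, a cohesin subunit gene on chromosome X, was the only one of the 14 higher by the reverse of that limit, and was so in both cell states, with 509 and 834 contacts in ESCs (log2 ratio 0.80) and 460 and 636 in MNs (log2 ratio 0.38). Of all promoter bins 1.81% in ESCs and 5.78% in MNs were higher by that much. Relative to its neighbours Smc1a stood at 0.06 in ESCs and at -0.32 in MNs, where the direction was turned and it was the 1 gene of the 14 lower by 20% or more, against 0.904% of all promoter bins. On that measure the 1 gene higher by the reverse of the limit in MNs was Wapl, which releases cohesin from chromatin, at 0.47 (476 and 577 contacts, log2 ratio 0.19), and 0 genes passed either limit in ESCs. The shares of all promoter bins higher on that measure were 0.165% in ESCs and 0.872% in MNs.

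Of 46 genes picked as POZ zinc finger genes by their symbols, 1 in ESCs was lower by 20% or more, Patz1 itself, and 20 in MNs, against the 1.04% and 28.9% of all promoter bins. Their median log2 ratios were -0.06 and -0.29, where those of all promoter bins were -0.02 and -0.20. Relative to neighbours 1 of 46 was lower by 20% or more in each cell state, again Patz1, against 0.208% of all promoter bins in ESCs and 0.904% in MNs, and 0 were higher by the reverse of that limit. The other 19 that were lower in MNs were Zbtb7a, Zbtb48, Zbtb17, Zbtb22, Bcl6b, Zbtb4, Zbtb40, Zbtb8a, Zbtb16, Zbtb42, Zbtb32, Zbtb3, Zbtb38, Hic2, Zbtb8os, Zbtb39, Zbtb43, Zbtb14 and Zbtb49, with log2 ratios from -0.61 to -0.33. Relative to their neighbours they ran from -0.21 to 0.04. The lowest of them, Zbtb7a, a transcriptional repressor, had 510 and 356 contacts in MNs (log2 ratio -0.61) and stood at -0.05 relative to its neighbours. Zbtb17, the gene of MIZ1, a partner of MYC, had 434 and 324 (log2 ratio -0.51) and stood at -0.08. Zbtb8os was picked by its symbol alone, as a gene on the opposite strand beside Zbtb8a.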

How the data were processed

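Micro-C libraries (1 per group) were prepared with the Dovetail kit. That company mapped the reads to mm10, which is GRCm38, built the matrices and ran HiCcompare of WT against PATZ1 KO for the authors. The aligner is not given in the sources used here. Per pair of 8 kb bins, the authors deposited interaction frequencies, which are raw counts of contacts, and adjusted ones, a signal from HiCcompare's normalization of both libraries together. The deposited comparison columns (log ratios, mean, score, p-values) were not used, and 0 columns of other samples were left out.

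Counts were summed per bin, scaled to the listed total of each library and compared as log2 ratios, with exact 95% binomial intervals. The promoter bin minus the gene body had the interval of an odds ratio. Sums over all bins took contacts within 1 Mb and bins with at least 100 contacts over both libraries. Groups came from the labels. Promoter bins held the GENCODE start of a protein-coding gene. The named genes were Patz1, the 5 nearest gene starts on each side, gene starts in partner bins, the 3 genes nearest in ratio, and members of the insulation and POZ lists. The members, lists and rules were chosen with earlier results of these data known. Alternatives were other scalings, reach, flanks, folds and limits, and a lowess fit on GC content. Scripts were tested on simulated data. Python 3.11.15, NumPy 2.4.6, pandas 2.3.3, SciPy 1.17.1, statsmodels 0.14.6 and matplotlib 3.10.9 were used.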

Additional observations from a re-analysis of the deposited data

Results flagged for a closer look

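In 3 sums the ratios of PATZ1 KO over WT lay on opposite sides of 0 in ESCs and MNs, each with a counting interval clear of 0. They were the first gene-body bin with the window (log2 ratio 0.183 in ESCs and -0.475 in MNs), the pair of the gene-body bins (0.444 and -0.812) and contacts within the second gene-body bin (0.285 and -0.398). The difference between ESCs and MNs was not tested, since there was 1 library per group. In the same MN libraries the flanking bins had a median of -0.25, and chromosome 11 as a whole stood at -0.14. In ESCs the first gene-body bin was at 0.065 scaled to the window, and at -0.03 without pairs within a bin and between next bins. Relative to neighbours it was at 0.14, with an interval of -0.01 to 0.29 that leaves out any error of the flanking median. Scaled to the read totals of the study, its signs were turned, with -0.695 in ESCs and 1.104 in MNs.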

How the results depend on the processing

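No paired analysis was made, and each group had 1 library. Of 130 alternative values for 44 results, 103 moved little, by less than the counting interval for ratios and shares and by at most 1.5 times for counts and percents of bins. Of these, 3 crossed 0, all for the second gene-body bin in ESCs, whose interval spans 0: -0.04 scaled to the window and, without pairs within 1 bin, -0.04 as a ratio and relative to neighbours. Without pairs within 1 bin and next bins, the ESC ratios were -0.65 for the promoter bin, -0.030 for the first gene-body bin and -0.22 for the second. Scaled to the read totals of the study, an alternative chosen after seeing the data, they were -1.29, -0.69 and -0.80 in ESCs and 0.75, 1.10 and 1.07 in MNs, since the listed totals did not follow the reads. After a lowess fit on GC content over chromosome 11, the MN ratios were -0.28, -0.088 and -0.13. Under the other alternatives the promoter bin ran from -0.53 to -0.37 in ESCs and from -0.85 to -0.65 in MNs. Leaving out partner bins of over 5 times the median contacts, also chosen after seeing the data, gave -0.43 and -0.84. With coverage in the expected, partners in ESCs numbered 5 in WT and 2 in PATZ1 KO. They numbered 0 in WT ESCs, PATZ1 KO ESCs and WT MNs at an observed over expected of at least 3, and 6, 6, 13 and 3 in WT ESCs, PATZ1 KO ESCs, WT MNs and PATZ1 KO MNs at 5 contacts or more. At a fold of 1.5, 0.0809% of bins and 0.271% of promoter bins were lower in ESCs, and 0.771% and 2.17% in MNs. After the GC fit over all chromosomes, 0.308% of bins and 0.972% of promoter bins were lower in ESCs, and 0.357% and 0.432% in MNs. The causes were not tested. Depth limits single pairs, most of which held under 10 contacts.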
